A study of Rattus norvegicus with 6 samples.

Results

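The miR-322, miR-503, miR-351, miR-542 and miR-450 microRNAs of the rat X chromosome were examined in the nucleus pulposus, the soft centre of an intervertebral disc, after compression. Members were the mature sequences whose name begins with miR-322, miR-503, miR-351, miR-450a, miR-450b or miR-542. The rule found 22 rows of the deposited table, which hold 11 distinct mature sequences out of 442, of which 204 carry an established miRNA name. The study compared 3 small RNA libraries of rats whose discs were compressed for 4 weeks (IDD, for intervertebral disc degeneration) with 3 libraries of sham rats, labelled as carrying K-wires for 4 weeks. All are from rat nucleus pulposus tissue, and strain, age, sex and the number of animals behind a library are not given in the sources used here. P-values therefore measure the spread between these libraries, which may be technical. The study's stated question was which miRNAs respond to mechanical load, and the question put to these members was whether hairpins that lie together on the chromosome moved together.

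A microRNA is cut as a hairpin from a longer primary transcript and then trimmed to a short duplex, whose strands are called 5p and 3p after the arm of the hairpin they come from. One strand is usually loaded into an Argonaute protein, where its seed, the bases next to its 5′ end, pairs with target mRNAs, while the other is degraded. Hairpins that lie close together are often cut from a single transcript, a polycistron, so that transcription raises or lowers them jointly. Cutting acts on a hairpin with both its arms, while loading and decay act on each arm separately. In human the miR-322 counterpart is named miR-424. miR-322-5p and miR-503-5p belong to the extended miR-15 and miR-16 family, whose targets include cyclins and other drivers of the cell cycle, and in mouse muscle precursors both promote exit from the cycle.

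The mature sequences of the 11 members are shown because their seeds decide which other miRNAs share their targets. All 11 were found letter for letter in the RefSeq miRNA table (build GRCr8), and capitals mark the seed, bases 2 to 8 counted from the 5′ end.
miR-322-5p: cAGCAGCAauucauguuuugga
miR-322-3p: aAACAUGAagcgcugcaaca
miR-503-5p: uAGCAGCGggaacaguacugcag
miR-503-3p: gGAGUAUUguuuccgcugccugg
miR-351-5p: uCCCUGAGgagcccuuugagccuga
miR-542-5p: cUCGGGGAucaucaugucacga
miR-542-3p: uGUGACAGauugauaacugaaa
miR-450b-5p: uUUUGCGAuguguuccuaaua
miR-450b-3p: aUUGGGGAcgcuucgcauuca
miR-450a-5p: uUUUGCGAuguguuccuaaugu
miR-450a-3p: uAUUGGGAacauuuugcauaa
The 5p arms of miR-450a and miR-450b share their seed and are identical over their first 20 bases. They differ by the substitution G21A (miR-450a-5p first) and by 1 further base at the 3′ end of miR-450a-5p. They are the only members within 1 difference of another listed sequence, so the split of tags between them is uncertain where the authors' counting could divide them. The seed of miR-322-5p is also that of miR-15b, miR-16, miR-195 and miR-497, and the seed of miR-351-5p is that of miR-125a-5p and miR-125b-5p.

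In RefSeq the 6 hairpins lie on the minus strand of chromosome X at chrX:137720933-137726241 (GRCr8), a span of 5309 bases between the protein-coding genes Hprt1 and Plac1. Read in the direction of transcription the order is miR-322, miR-503, miR-351, miR-542, miR-450b and miR-450a. Only 220 bases separate the hairpins of miR-322 and miR-503, 659 those of miR-503 and miR-351 and 54 those of miR-450b and miR-450a, while the gaps before and after miR-542 measure 2861 and 1029 bases. A long non-coding RNA gene, LOC102550366, holds the hairpins of miR-322, miR-503 and miR-351. The hairpin of miR-322 is shown because its arms gave the largest divergence below, and capitals mark the 5p arm and then the 3p arm.
Mir322: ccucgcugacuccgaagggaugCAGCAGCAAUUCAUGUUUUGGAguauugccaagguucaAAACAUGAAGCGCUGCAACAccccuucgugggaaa

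Library totals were 189802 to 246422 tags in IDD and 169783 to 253807 in Sham, so 3 tags correspond to 11.6 to 16.9 CPM (the field's usual tag count scaled to a common library size, here with TMM factors). Tags under established miRNA names made up 77.8% to 83.1% of a library in IDD and 49.5% to 56.2% in Sham, and any share of all tags moves with that difference. Small RNA libraries hold no disc marker mRNAs. The cartilage miRNA miR-140-3p made up 11.8% ± 0.258 of an IDD library and 8.59% ± 1.26 of a Sham library (SD, n = 3). miR-1b, of the muscle miR-1 family, took 38.9% to 43.1% and 20.1% to 22.7%. Their part in the results below was not tested. In tissue samples of this kind, fewer cells of a type and less RNA per cell cannot be told apart.

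The tested members of the cluster did not share a single response. Of the 11 members, 5 held enough tags to be tested, and 2 of them fell, miR-322-5p by 2.06-fold and miR-450b-5p by 1.46-fold, while miR-322-3p, miR-542-3p and miR-450a-5p did not pass the threshold (edgeR quasi-likelihood test, Benjamini-Hochberg adjusted p below 0.05 over 131 tested sequences). None of the 5 rose. Over all tested sequences 59.5% passed in either direction and 30.5% were lower in IDD, so 2 lower members of 5 is not a count that stands apart from the rest of the table. The median log2 fold change was −0.16 over the 5 members and 0.03 over all 131 tested sequences. The same 2 members were also the only ones of the 5 whose IDD and Sham levels did not overlap, against 66.4% of all tested sequences. Over all tested sequences 38 calls were higher and 40 lower in IDD, but this split moved to 52 and 29 with library size alone, 29 and 44 with factors from established names and 60 and 30 on the authors' normalized values.

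The cluster as a share of the library depends on what it is divided by. All 11 members together held 2016, 1525 and 2051 tags in IDD 1, 2 and 3 and 1883, 2028 and 1384 tags in Sham 1, 2 and 3. Divided by the whole library, the cluster's share was 0.859% ± 0.0836 in the IDD group and 0.788% ± 0.0398 in the Sham group (SD, n = 3), with overlap. Of the tags of established miRNAs alone it is 1.06% ± 0.0984 and 1.48% ± 0.0272, and there every IDD library lies below every Sham library. The direction of the summed cluster therefore turns with the denominator.

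miR-322-5p had 23, 18 and 22 tags in IDD 1, 2 and 3 and 43, 46 and 29 in Sham 1, 2 and 3. As levels these are 89.0, 92.0 and 91.7 CPM in IDD against 202, 193 and 163 CPM in Sham. All IDD values lie well below the lowest Sham value. The log2 fold change was −1.04 (SE 0.17, 95% interval −1.42 to −0.66, edgeR adjusted p = 0.000202), and it passed under all 17 alternative settings. Because the counts are small, the ratio of summed tags was also given its exact counting interval: Sham held 2.07 times the scaled tags of IDD, with an interval of 1.51 to 2.86.

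The other arm of the same hairpin held most of its tags. miR-322-3p had 935, 652 and 748 tags in IDD and 684, 719 and 478 in Sham, or 3617, 3333 and 3118 CPM against 3213, 3023 and 2695 CPM. The groups overlap, since the lowest IDD library lies below the highest Sham library. The log2 fold change was 0.17 (SE 0.11, 95% interval −0.07 to 0.41, edgeR adjusted p = 0.199). It passed as higher with library size as the only scaling (0.36, adjusted p = 0.0163) and on the authors' normalized values (0.40, adjusted p = 0.00609), where 39.7% and 45.8% of all tested sequences were called higher. No role is given here for the 3p arm, whose seed is shared with no other listed established miRNA.

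miR-542-3p, reported in human cancer cells to target the apoptosis inhibitor survivin, had 298, 232 and 334 tags in IDD and 267, 281 and 198 in Sham. Its levels were 1153, 1186 and 1392 CPM in IDD and 1254, 1181 and 1116 CPM in Sham, which overlap. The log2 fold change was 0.070 (SE 0.12, 95% interval −0.18 to 0.32, edgeR adjusted p = 0.661), so a change of 1.5-fold lies outside the interval in either direction. Its sign changes when the scaling is taken from established names (−0.092), and on the authors' normalized values it passed as higher (0.30, adjusted p = 0.0389).

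The miR-450 5p arms lie at the far end of the cluster. miR-450b-5p had 158, 135 and 190 tags in IDD and 225, 258 and 162 in Sham, at levels of 611, 690 and 792 CPM against 1057, 1085 and 913 CPM. Each IDD level is below each Sham level. The log2 fold change was −0.55 (SE 0.13, 95% interval −0.83 to −0.28, edgeR adjusted p = 0.00219), a call that held under all 17 alternatives (adjusted p up to 0.0436).

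miR-450a-5p had 587, 476 and 740 tags in IDD and 631, 701 and 496 in Sham, at levels of 2271, 2433 and 3084 CPM against 2964, 2947 and 2796 CPM. IDD 1 and 2 lie below all Sham libraries and IDD 3 above them, so the groups overlap. The log2 fold change was −0.16 (SE 0.12, 95% interval −0.43 to 0.11, edgeR adjusted p = 0.285). Without IDD 3 it passed as lower (−0.31, adjusted p = 0.0348). It also passed as lower with factors from established names (−0.32, adjusted p = 0.0342), and with library size alone its sign changes (0.026). Under those scalings 33.6% and 22.1% of all tested sequences were called lower in IDD.

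**Figure D1:**
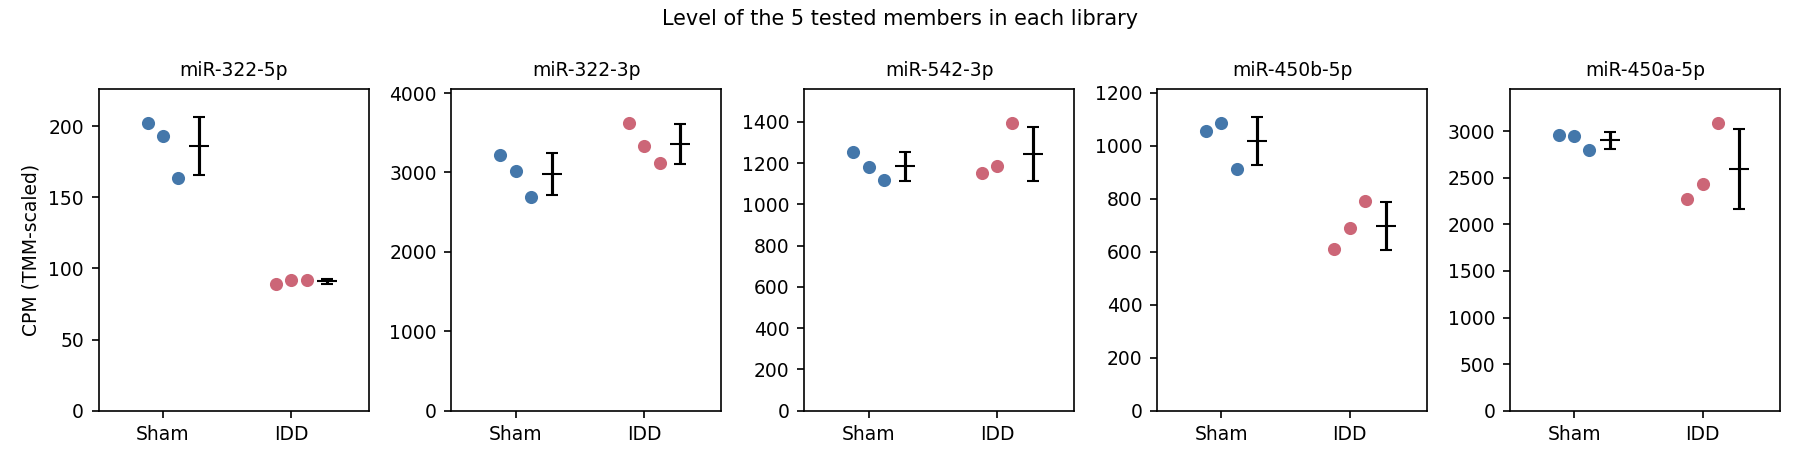
Level of each tested member in CPM (linear axis from 0) in the 3 Sham and the 3 IDD libraries. Points are libraries, and the bar beside them is the mean with the SD. miR-322-5p (all IDD libraries at 92.0 CPM or below, all Sham libraries at 163 CPM or above) and miR-450b-5p separate the groups, and the other 3 members overlap.

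The divergence of the miR-322 arms does not depend on any scaling, because both were counted in the same library. For each tag of miR-322-5p there were 40.7, 36.2 and 34.0 tags of miR-322-3p in IDD 1, 2 and 3 and 15.9, 15.6 and 16.5 in Sham 1, 2 and 3. The mean ratio was 37.0 ± 3.39 in IDD and 16.0 ± 0.435 in Sham (SD, n = 3), a 2.25-fold difference on the log2(count + 1) scale. The groups do not overlap. Each ratio rests on 18 to 46 tags of miR-322-5p, and the SD over 3 libraries need not show that counting error in full. For miR-322-5p alone the exact counting interval was 1.51 to 2.86 (Sham over IDD). The exact two-sided permutation test gave p = 0.1, which is the smallest that 3 against 3 libraries allow, so this design cannot reach 0.05. A limma fit of the log2 arm ratios, 5p over 3p, gave a difference of −1.17 with a 95% interval of −1.55 to −0.79. With the replicate block the interval was −1.88 to −0.47. Fitted instead as 3p over 5p among the ratios of all members to miR-322-5p, the difference was 1.17 with an interval of 0.88 to 1.47. These intervals come from the spread between libraries, with no separate term for counting error.

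Of the other hairpins, 4 also had both arms listed, but 1 arm held few tags. The 5p to 3p ratio of miR-450b was 31.6, 19.3 and 31.7 in IDD and 28.1, 36.9 and 23.1 in Sham, which overlap (log2 difference −0.14, 95% interval of the limma fit −0.84 to 0.55, exact two-sided permutation p = 0.7). The denominator, miR-450b-3p, had 5 to 8 tags per library. For miR-503, miR-450a and miR-542 the minor arm was blank in at least 1 library of each comparison, so no ratio is given for them.

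**Figure D2:**
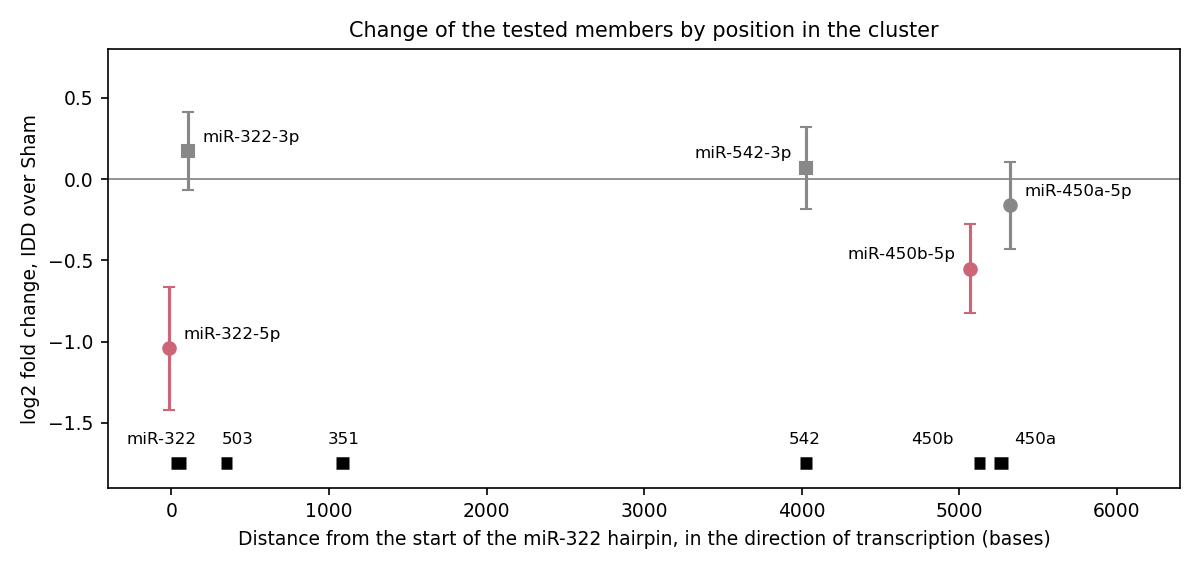
log2 fold change of the 5 tested members (IDD over Sham, vertical bars are 95% intervals) against distance in bases from the start of the miR-322 hairpin, read in the direction of transcription. Circles are 5p arms, squares 3p arms, red marks members that passed the test, black blocks at the bottom are the hairpins, and points of neighbouring arms are set slightly apart. Both arms of the first hairpin lie at −1.04 and 0.17, as far apart as any tested members of the cluster.

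Whether members moved by unequal amounts was read from their ratio within each library. Of the 10 pairs among the 5 tested members, 8 had ratios that did not overlap between the groups, each at the smallest exact two-sided permutation p of 0.1. Over all 8515 pairs of tested sequences 69.4% did not overlap, so this count is near that of any sequences of the table. Pairs share members, so these are not 10 independent comparisons. miR-322-5p had the lowest log2 fold change of the 5, so relative to it every other tested member was bound to be higher in IDD. These ratios give the size of the difference and are no further support for it. miR-542-3p stood at 12.96, 12.89 and 15.18 tags per miR-322-5p tag in IDD against 6.21, 6.11 and 6.83 in Sham. miR-450a-5p stood at 25.5, 26.4 and 33.6 against 14.7, 15.2 and 17.1. miR-450b-5p, the other member that fell, stood at 6.87, 7.50 and 8.64 against 5.23, 5.61 and 5.59. The 95% intervals of these log2 differences in the limma fit were 0.75 to 1.38, 0.45 to 1.21 and 0.13 to 0.78.

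The neighbouring miR-450 hairpins also differed from each other. There were 3.72, 3.53 and 3.89 tags of miR-450a-5p per tag of miR-450b-5p in IDD and 2.80, 2.72 and 3.06 in Sham, a 1.30-fold difference with no overlap (exact two-sided permutation test, p = 0.1). These sequences differ only at their 3′ end, as shown above, so a tag that lacks its last bases cannot be placed with certainty. Added together, the miR-450 5p arms stood at 2882, 3124 and 3876 CPM in IDD and 4022, 4032 and 3710 CPM in Sham, which overlap through IDD 3.

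The exceptions were the pairs of miR-322-3p with miR-542-3p and with miR-450a-5p. miR-322-3p had 3.14, 2.81 and 2.24 tags per tag of miR-542-3p in IDD and 2.56, 2.56 and 2.41 in Sham, so that the IDD libraries lie on both sides of Sham (log2 difference 0.11, exact two-sided permutation p = 0.5). Against miR-450a-5p it had 1.59, 1.37 and 1.01 in IDD and 1.08, 1.03 and 0.964 in Sham (log2 difference 0.35, p = 0.3 in the same exact test). The IDD libraries differed among themselves more than the Sham libraries in both ratios. miR-322-3p made up 46.4%, 42.8% and 36.5% of the cluster's tags in IDD 1, 2 and 3 but 36.3%, 35.5% and 34.5% in Sham, and miR-450a-5p 29.1%, 31.2% and 36.1% against 33.5%, 34.6% and 35.8%.

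**Figure D3:**
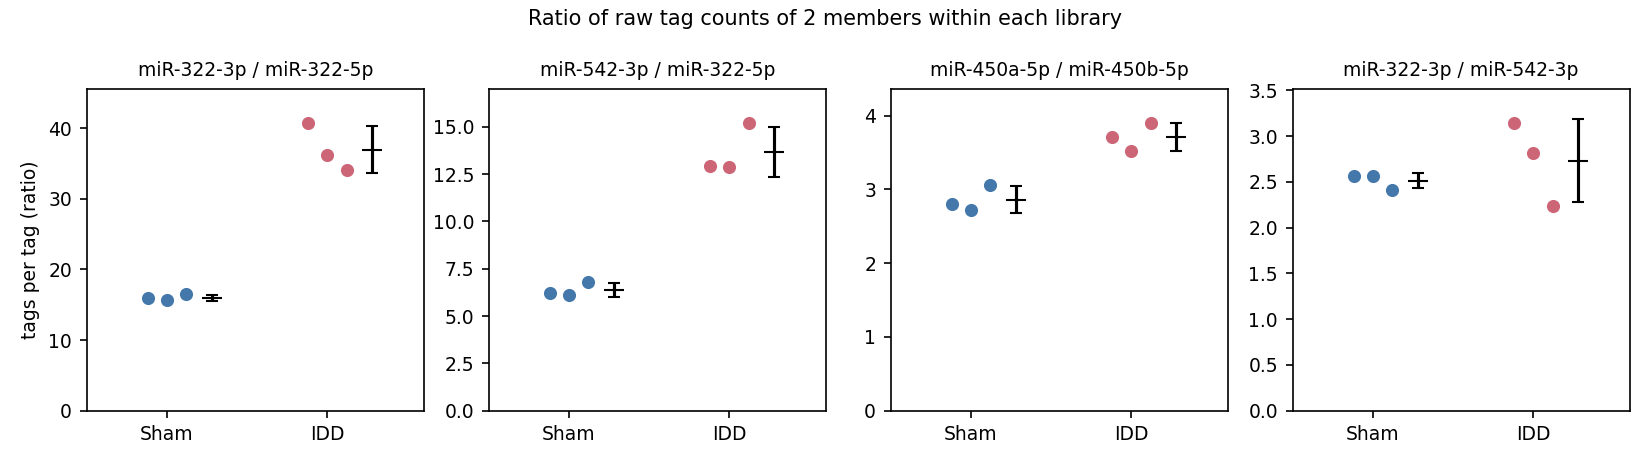
Ratio of raw tag counts of a pair of members within each library (linear axes from 0), for 4 pairs. Points are libraries, and the bar beside them is the mean with the SD. The ratio of the miR-322 arms, of miR-542-3p to miR-322-5p and of the miR-450 5p arms do not overlap between Sham and IDD, whereas the IDD values of miR-322-3p to miR-542-3p spread on both sides of the Sham values.

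The hairpins of miR-503 and miR-351 and the minor arms of miR-450 and miR-542 yielded few tags. miR-503-5p, of the same family as miR-322-5p but with a seed that ends in G, had 5, 3 and 6 tags in IDD and 7, 7 and 4 in Sham, too few to test. Sham held 1.42 times its scaled tags in IDD, with an exact counting interval of 0.668 to 3.09. miR-503-3p had 7, 2 and 2 tags in Sham and was blank in all IDD libraries, and no fold is given because most of these values lie under 3 tags.

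miR-351-5p, which carries the miR-125 seed, had 5, 2 and 3 tags in IDD and 9, 7 and 6 in Sham. Each IDD count is below each Sham count. Sham held 2.43 times the scaled tags of IDD, with an exact counting interval of 1.10 to 5.75. It was left out by the filter on low counts. With a minimum count of 5 it was called lower (edgeR log2 −1.21, adjusted p = 0.0362). It entered that fit through its Sham counts alone, so the call adds no support, and 49 of 170 sequences were called lower there. With no filter it was also called lower (−1.18, adjusted p = 0.0351), as were 168 of 442 sequences. Per tag of miR-322-5p it had 0.217, 0.111 and 0.136 tags in IDD and 0.209, 0.152 and 0.207 in Sham. These overlap (log2 difference −0.13, exact two-sided permutation p = 0.8), unlike the ratios of the tested members to miR-322-5p above. The limma interval was −0.69 to 0.43, and with 2 to 9 tags per library an overlap does not establish equal movement. miR-450b-3p had 5, 7 and 6 tags in IDD and 8, 7 and 7 in Sham. Sham held 1.35 times its scaled tags in IDD, with an exact counting interval of 0.692 to 2.67. With a minimum count of 5 it did not pass (edgeR log2 −0.38, adjusted p = 0.472). miR-450a-3p was listed only in IDD 3, with 2 tags, and miR-542-5p only in Sham 1 and Sham 3, with 2 tags each. A count of 0 allows up to 3 tags, so at this depth no difference could be detected for miR-450a-3p and miR-542-5p.

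**Figure D4:**
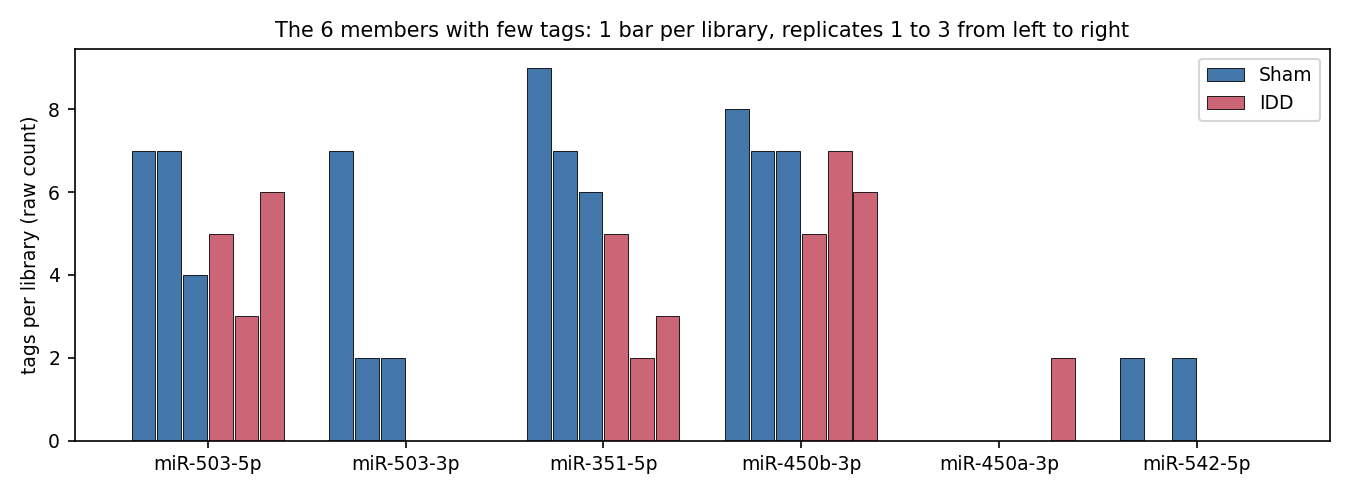
Raw tag counts of the 6 members with too few tags to test, 1 bar per library (Sham blue, IDD red, replicates 1 to 3 from left to right in each group, axis from 0). No bar exceeds 9 tags. miR-351-5p is lower in every IDD library than in any Sham library, and miR-503-3p was blank in IDD.

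miRNAs that share a seed with a member did not all change in its direction. Of the 6 such sequences 4 were tested, of which 2 rose, 1 fell and 1 did not pass, against 59.5% called among all tested sequences. miR-195-5p, of the seed of miR-322-5p, rose (log2 0.80, SE 0.20, edgeR adjusted p = 0.00363), unlike miR-322-5p. miR-16-5p, of the same seed, had 7, 3 and 4 tags in IDD and 15, 18 and 14 in Sham. It was called lower (−1.86, SE 0.24, edgeR adjusted p = 3.05e-05). It passed the filter through Sham alone, where it is high, so that call adds no support. miR-125a-5p had 18, 10 and 11 tags in IDD and 2, 4 and 4 in Sham. It was called higher (1.78, SE 0.30, edgeR adjusted p = 0.000307). It passed the filter through IDD alone, where it is high, so the same limit holds. miR-125b-5p did not pass (0.18, adjusted p = 0.209). miR-15b-5p with 2 to 7 tags and miR-497-5p with 2 to 5 tags per library were too few to test.

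Pooling by seed shows how the make-up changed. The 5 listed miRNAs with the seed of miR-322-5p came together to 410, 358 and 304 CPM in IDD and 423, 425 and 372 CPM in Sham, and these ranges overlap. Within that pool miR-322-5p supplied 21.7%, 25.7% and 30.1% of the tags in IDD and 47.8%, 45.5% and 43.9% in Sham, with no overlap. In the pool of miR-351-5p with the miR-125 5p arms, miR-351-5p supplied 5 of 134, 2 of 89 and 3 of 117 tags in IDD and 9 of 90, 7 of 103 and 6 of 71 in Sham, and the other tags came from outside the cluster.

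Other miRNAs of the X chromosome were looked up by their mature sequence in RefSeq. Of 25 listed sequences found on chromosome X alone and outside the cluster, 5 were tested, of which 1 rose, 3 fell and 1 did not pass. That compares with 59.5% of all tested sequences called and 30.5% called lower, and 5 sequences are too few to set them apart. miR-672-5p (log2 −1.78, SE 0.23, edgeR adjusted p = 2.37e-05), miR-361-3p (−1.35, SE 0.19, adjusted p = 5.19e-05) and miR-98-5p (−0.69, SE 0.26, adjusted p = 0.0343) fell, and miR-3559-5p rose (0.87, SE 0.16, adjusted p = 0.00035). The call of miR-98-5p was lost under 7 of 17 alternatives (adjusted p up to 0.260). miR-532-5p did not pass (−0.17, adjusted p = 0.252). Among these 5 tested sequences a position on the X chromosome was therefore not accompanied by a single direction. Of the 25 listed, 8 (32.0%) were in all Sham libraries and in no IDD library, and 1 (4.0%) the other way round, as described under the other observations. Over all 204 established sequences, these included, the numbers were 14 (6.86%) and 9 (4.41%).

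The sequences whose pattern over the 6 libraries was nearest to that of miR-322-3p, the most abundant member, were miR-192-5p, let-7c-5p and let-7a-5p. Likeness was measured as the root mean square difference of centred log2(CPM + 1), which was 0.066, 0.075 and 0.087 for these 3. Among the members, miR-542-3p was nearest to miR-322-3p (0.155) and ranked 19 of the 130 other tested sequences, while miR-322-5p (0.603) ranked 102. The nearest member to miR-450a-5p was miR-542-3p (0.133). In no case was a member among the 3 sequences nearest to another member.

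The scaling moved all members alike. The median log2 fold change of all tested sequences shifted by 0.19 with library size alone and by −0.16 with factors from established names. Relative to that median, over TMM, RLE, library size alone and factors from established names, miR-322-5p stayed at −1.07 to −1.06, miR-450b-5p at −0.58 and miR-450a-5p at −0.20 to −0.19. miR-542-3p stayed at 0.04 and miR-322-3p at 0.14 to 0.15. As fitted, the signs of miR-450a-5p and miR-542-3p changed between these scalings. A scaling shifts all sequences by nearly the same amount, so the values relative to the median hardly move by construction.

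**Figure D5:**
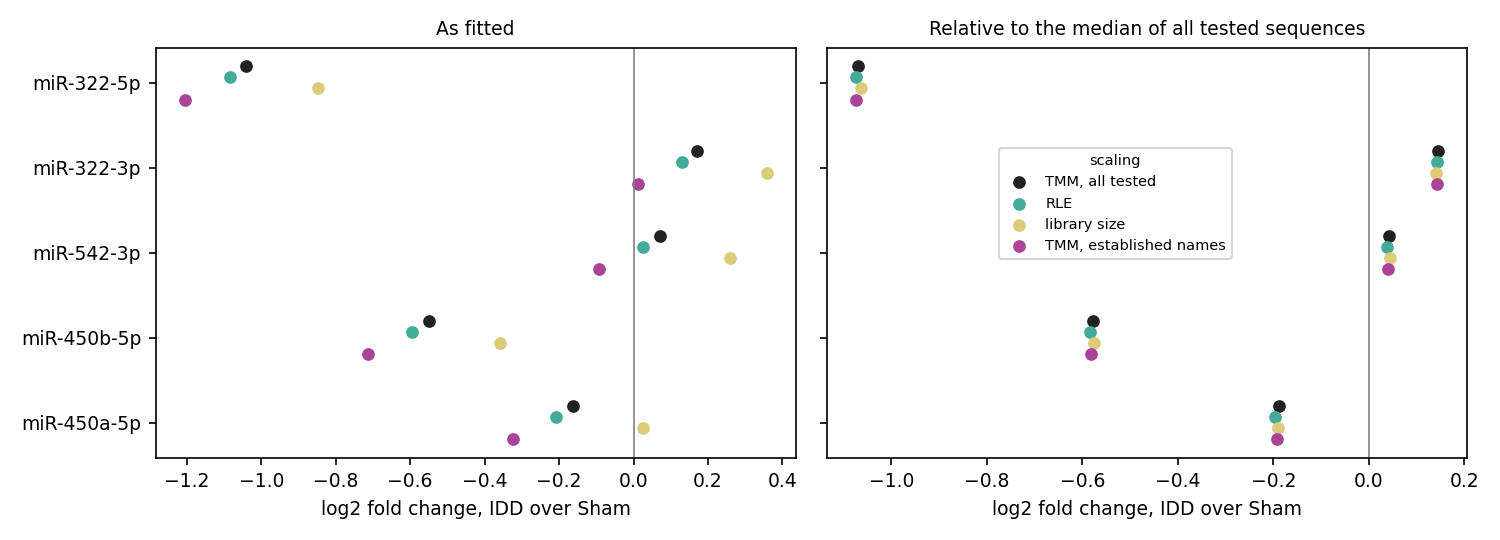
log2 fold change (IDD over Sham) of the 5 tested members under 4 scalings, as fitted on the left and after subtracting the median of all tested sequences on the right. Each point is a member under 1 scaling. On the left miR-450a-5p and miR-542-3p lie on both sides of 0, and on the right the 4 points of each member nearly coincide, from −1.07 for miR-322-5p to 0.15 for miR-322-3p.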

How the data were processed

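Small RNA libraries were prepared from total RNA of disc tissue, selected for the size of miRNAs and read on a NovaSeq instrument, according to the labels' protocols. The table used holds unnormalized tag counts for each mature sequence, as deposited. No role is stated for cutadapt 1.9.3, Novoalign 3.02.12 or the build Rnor_6.0, which come from the submitters' processing notes. A second table holds normalized tag counts that the authors rounded, treated as a score and used only as an alternative. Blank cells were set to 0, and the lowest listed count was 2. Rows repeating a mature sequence carried identical counts and were merged (491 rows, 442 sequences).

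IDD was compared with Sham by edgeR 4.0.16 in R 4.3.3, after the filterByExpr step (minimum count 10) and TMM scaling, using its robust quasi-likelihood fit. The SE was obtained by dividing the size of the log2 fold change by the root of F. Ratios of summed counts have 95% intervals by the Clopper-Pearson method, and these intervals and floors of 3 counts cover counting error only. Ratios used log2(count + 1), an exact two-sided permutation test (scipy 1.17.1) and, for intervals, limma 3.58.1. The fit was tested on simulated counts. Plots used matplotlib 3.10.9. DESeq2 1.42.0 was an alternative.

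All members were named. List members were named where tested, and nearest sequences by root mean square difference. The 10 pairs of tested members, the background of all pairs, the seed pools and the changes relative to the median were added after the data were seen. Members and lists were chosen with earlier results of these data known. Deviations from the group means correlated weakly within each replicate number (0.104, 0.107 and 0.197), and the unmatched IDD 2 and Sham 1 reached 0.106. These values do not establish a pairing by number, and no label gives one. The replicate number therefore served only as a block in alternative fits. The main fit, the main limma intervals and the exact permutation tests treated the libraries as unpaired.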

Additional observations from a re-analysis of the deposited data

How the results depend on the processing

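The fit was repeated under 17 alternatives. miR-322-5p (log2 −1.21 to −0.76) and miR-450b-5p (−0.71 to −0.31) passed as lower under all 17. With the replicate block they stood at −1.04 and −0.55, and the block changed no call among the members. Without a filter 285 of 442 sequences were called, against 78 of 131, and 4 members passed (miR-322-5p, miR-450b-5p, miR-351-5p and miR-503-3p, the last against blank cells). On the authors' normalized values 4 members passed, with miR-322-3p (0.40) and miR-542-3p (0.30) higher, in a setting that called 90 of 131 sequences, 60 of them higher, and moved the median of all sequences by 0.26. Leaving out 1 library each gave 58 to 77 calls, of which 2 to 3 were members. Without Sham 2 the count was lowest. miR-322-3p passed with library size alone (0.36) and ranged from 0.034 to 0.23 over libraries left out. miR-542-3p changed sign with factors from established names (−0.092), with established names alone (−0.063), without IDD 3 (−0.019) and without Sham 3 (−0.042), and reached 0.14 at most over libraries left out. miR-450a-5p passed as lower with factors from established names (−0.32), with established names alone (−0.30) and without IDD 3 (−0.31), the lowest of a range up to −0.071, and changed sign on the authors' values (0.058) and under library size alone (0.026). The causes were not tested.

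Ratios to miR-322-5p passed the threshold in limma fits of the ratios, with and without the replicate block, for miR-322-3p (1.17, and −1.17 taken as 5p over 3p), miR-542-3p (1.07), miR-450a-5p (0.83) and miR-450b-5p (0.45). With 1 library left out they ranged from 1.10 to 1.23, 0.99 to 1.11, 0.70 to 0.90 and 0.36 to 0.53. Other pseudocounts moved none of these 4 by more than the spread between replicates. miR-450a-3p also passed with and without the block (1.38), although it was listed only in IDD 3, with 2 tags. miR-503-5p (0.54) and miR-503-3p (−1.20) passed without the block only. All these ratios share the denominator miR-322-5p, with 18 to 46 tags per library and the lowest log2 fold change of the tested members. Passing is therefore not particular to the 4, and their direction was set by that denominator. The cluster's share of tags differed by 0.0713 percentage points (IDD minus Sham), 0.0232 to 0.0990 with 1 library left out, and by −0.418 over the tags of established miRNAs. Depth limits the members under 10 tags per library, for which no ratio without a pseudocount could be formed where an arm was blank.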

Other observations

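A further group of X-linked miRNAs differed in whether they were listed at all. miR-741-3p had 14, 8 and 7 tags in Sham 1, 2 and 3 and was blank in all IDD libraries, as was miR-743a-3p with 12, 7 and 5, miR-881-3p with 16, 7 and 7 and miR-471-5p with 4, 3 and 3. miR-743b-3p had 16, 7 and 7 tags in Sham and only 2 tags in IDD 2. In mouse these miRNAs are known from the testis. Of the 25 X-linked sequences outside the cluster, 8 (32.0%) were listed in all Sham libraries and in no IDD library, and 1 (4.0%) the other way round. Besides miR-741-3p, miR-743a-3p, miR-881-3p and miR-471-5p, the 8 include miR-363-3p with 3, 4 and 4 tags in Sham. The rest are miR-676, miR-223-5p and miR-374-3p, each with 2 tags in every Sham library, the lowest count listed. Among the 165 established sequences with no copy on the X chromosome these numbers were 5 (3.03%) and 7 (4.24%). The counts lie between 2 and 16 tags, Sham libraries listed more sequences in all (at least 305 against at most 273), and these miRNAs were chosen after their values were seen, so the numbers are a description only.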
